A study of Sus scrofa with 34 samples.

Results

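Complement and coagulation factors were examined as a group of 38 listed genes, chosen by symbol for the known role of their proteins in the blood. The choice was made with earlier results of these data known. Of the 38, 35 were found by their pig gene symbol among the 25880 genes of the count tables, and C1R, C1S and FGA were not analysed here. Weaned crossbred piglets were fed for 28 days a basal diet (control), the basal diet with a phytogenic feed additive made of plant extracts and nature-identical compounds (PFA, Digestarom), a diet with oxidized rapeseed oil (OO), or the oxidized oil diet with the additive (OO + PFA). RNA was sequenced from the liver of 6 pigs per diet and from the ileum of 5 control and 5 PFA pigs, and these 10 pigs also gave a liver library. The pigs of a diet shared 1 pen. Effects of the pen and of the diet therefore cannot be told apart in any comparison of diets below. By the paper's list of ingredients, the oxidized oil diets also held far more oil and more calculated energy than the basal diet. No diet held as much fresh oil, so effects of oxidation, oil amount and energy cannot be told apart either. The liver of OO + PFA pig OP-77, which the study set aside for suspected RNA degradation, was left out of the liver fits, and its values are given separately.

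Complement is a cascade of plasma proteins in which the classical, lectin and alternative pathways meet at C3, and the cleavage of C5 then starts the assembly of C6, C7, C8 and C9 into a membrane pore. Coagulation is a second cascade of plasma proteases, in which the factors F7, F10, F5 and F2 (prothrombin) lead to the cleavage of fibrinogen into fibrin, inhibitors such as SERPINC1 (antithrombin) restrain it, and PLG (plasminogen) dissolves the clot. Hepatocytes secrete most of these proteins, and several complement genes are also transcribed outside the liver.

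Depth ran from 18738055 to 42446834 read pairs counted on genes per library. Levels are given as CPM, the usual depth-scaled read counts, with library sizes adjusted by the TMM method of edgeR. A gene was called when its adjusted p was at most 0.05 in the quasi-likelihood test of edgeR, adjusted by the Benjamini-Hochberg method over all genes tested, and adjusted p-values below are from that edgeR test unless another is named. The labelled tissues were checked against marker genes. ALB (albumin), a hepatocyte marker, lay between 59974 and 147967 CPM in the liver and between 0 and 0.216 CPM in the ileum. FABP2, an enterocyte marker, lay between 1897 and 4072 CPM in the ileum and at most at 0.117 CPM in the liver. These are whole tissues, so fewer cells of a type and less RNA per cell cannot be told apart.

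Promoter sequences are shown for the 3 members that passed the test between OO + PFA and control livers (CFD, F7 and F10) and for FGB, the member with the highest mean level per length in control liver. Each runs from 250 bases before to 50 after the gene start in RefSeq on Sscrofa11.1, 5′ to 3′ on the strand of the gene, and capitals mark matches to the motifs described below them.
CFD (chr2:77511939-77512238, minus strand): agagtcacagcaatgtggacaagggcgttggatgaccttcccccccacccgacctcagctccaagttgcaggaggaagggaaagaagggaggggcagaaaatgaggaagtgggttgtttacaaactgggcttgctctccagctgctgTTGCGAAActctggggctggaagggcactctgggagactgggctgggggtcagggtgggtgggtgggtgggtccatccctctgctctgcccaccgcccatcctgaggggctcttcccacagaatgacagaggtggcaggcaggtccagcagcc
F7 (chr11:78512139-78512438, plus strand): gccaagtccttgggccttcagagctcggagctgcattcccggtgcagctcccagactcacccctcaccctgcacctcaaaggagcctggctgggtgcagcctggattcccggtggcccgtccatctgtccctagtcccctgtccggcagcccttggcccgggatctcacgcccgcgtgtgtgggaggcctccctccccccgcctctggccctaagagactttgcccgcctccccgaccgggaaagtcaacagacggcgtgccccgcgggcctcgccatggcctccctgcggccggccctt
F10 (chr11:78521510-78521809, plus strand): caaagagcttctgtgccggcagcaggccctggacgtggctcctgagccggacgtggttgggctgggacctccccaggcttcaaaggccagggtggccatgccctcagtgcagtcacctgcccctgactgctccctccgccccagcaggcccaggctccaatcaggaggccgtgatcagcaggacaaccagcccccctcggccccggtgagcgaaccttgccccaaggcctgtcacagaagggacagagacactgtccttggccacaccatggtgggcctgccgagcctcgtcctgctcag
FGB (chr8:74607360-74607659, minus strand): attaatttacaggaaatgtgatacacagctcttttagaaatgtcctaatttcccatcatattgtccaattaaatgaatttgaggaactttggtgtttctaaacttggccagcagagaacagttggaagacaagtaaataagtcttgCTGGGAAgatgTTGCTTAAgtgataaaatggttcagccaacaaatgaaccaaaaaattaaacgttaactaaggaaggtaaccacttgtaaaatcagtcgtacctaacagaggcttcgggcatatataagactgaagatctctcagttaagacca

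Matches on both strands are given for a core of the IL-6 response element (CTGGGAA), a C/EBP site (TTGCNNAA) and an HNF4 site (CAAAGTCCA). The IL-6 element was present in 11 of 37 promoters (29.7%), those of all listed members but C4BPA, and in 14.5% of all 20613 promoters, and the C/EBP site in 13 (35.1%) against 9.65%. For the HNF4 site the shares were 1 of 37 (2.7%) and 0.374%. In FGB the IL-6 element began 104 bases and the C/EBP site 93 bases before the gene start. CFD held a C/EBP match at 103 bases. None of these letters was found in the windows of F7 and F10. A match is a description of the letters only.

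Per kilobase of exons, FGB had the highest mean of the 34 members with a RefSeq length in control liver, at 5860 ± 2745 CPM per kb (SD, n = 6). C3 followed at 3545 ± 1136 and FGG at 3465 ± 1532 (SD, n = 6 each), and the ranges of these 3 genes overlapped. SERPINC1, the antithrombin gene, was at 1643 ± 306.5 CPM per kb and PLG at 1547 ± 368.4 (SD, n = 6 each), again with overlapping ranges. At the low end stood F7, the protease that starts the tissue factor pathway, at 20.1 ± 6.11 CPM per kb, MASP1 at 7.68 ± 1.42, CFD at 4.79 ± 3.23 and C9 at 3.56 ± 2.002 (SD, n = 6 each). Ranges of the last pair overlapped. C9, a gene of the terminal pore, thus lay below C8A and C8B, the genes of 2 chains of its partner C8, at 387.9 ± 59.5 and 328.0 ± 78.6 CPM per kb (SD, n = 6 each). Lengths joined all RefSeq exons of a gene, which for MASP1 came to 12624 bases. Without division by length, MASP1 had a mean of 96.9 CPM in control liver, above F7 at 28.7 CPM.

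Fibrin formation was represented by FGB and FGG, which encode the beta and gamma chains of fibrinogen, and by F13B, a carrier subunit of the factor that cross-links fibrin. FGB ranged from 5924 to 21587 CPM in the 6 control livers (median 10127), from 9714 to 19695 with PFA (median 13205) and from 5613 to 15041 with OO (median 6697). The 5 OO + PFA livers were at 6198, 6830, 7439, 7986 and 17989 CPM. Control pig C-71 and OO + PFA pig OP-79 were the high livers of their diets, and all 4 diets overlapped. FGG ranged from 4166 to 14559 CPM in control livers (median 7407), from 7888 to 13934 with PFA (median 10062), from 4363 to 11553 with OO (median 6110) and from 5072 to 12347 with OO + PFA (median 5934). The log2 fold change of FGB against control was -0.51 with OO (SE 0.31, adjusted p = 0.360), and neither chain nor F13B was called in any diet comparison.

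Levels of these 2 chains followed each other from pig to pig. Over the 23 livers, deviations of log2 CPM from the diet mean gave a Pearson r of 0.98 and a Spearman rho of 0.94 between FGB and FGG (permutation p = 1e-05 each, adjusted p = 1e-05, two-sided, the smallest value that 100000 permutations can give). Without the 2 livers farthest from the median of FGB, r was 0.97. C8A and C8B, which lie 11820 bases apart on chromosome 6, gave r = 0.93 and rho = 0.91 (permutation p = 1e-05 each, adjusted p = 1e-05), and r = 0.87 without the 2 farthest livers. Library titles have 2 forms, which may mark batches, and within the 14 livers of one form r was 0.98 for FGB and FGG and 0.89 for C8A and C8B, against 0.98 and 0.96 in the 9 livers of the other. Beta and gamma chain genes both lie on chromosome 8, FGG at 74553040 to 74562151 and FGB at 74598170 to 74607409, 36018 bases apart. The ratio of FGB to FGG in CPM stayed between 1.05 and 1.57 over all 23 livers, while FGB itself lay between 5613 and 21587 CPM.

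**Figure D1:**
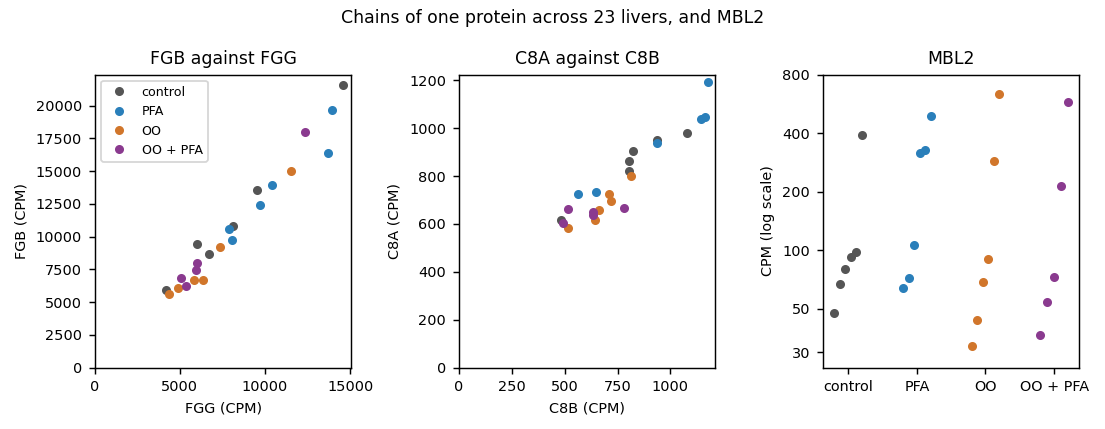
Levels in CPM of FGB against FGG and of C8A against C8B in 23 livers, and of MBL2 on a log axis by diet. Each point is 1 pig and colours mark the diet. Both pairs follow a line across the diets, and for MBL2 8 livers lie at 214.4 CPM or more and 15 at 106.6 CPM or less.

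In the lectin pathway, MBL2 encodes mannose-binding lectin, which recognises sugars on microbes, and MASP1 and MASP2 encode its proteases. MBL2, like C8B, C8G, C9 and PLG in the liver, was picked for description with its values known. Its 23 livers fell on both sides of a gap, with 15 between 32.3 and 106.6 CPM and 8 between 214.4 and 632.7 CPM. Of the 8, 1 was a control, 3 were PFA, 2 OO and 2 OO + PFA pigs, and 5 had one title form and 3 the other. Its coefficient of variation within diets averaged 104.4%, the highest of the 35 members, for which the median was 22.9%. MASP1 stood at the other end with 12.8%, and C8A and SERPIND1, the gene of heparin cofactor II, had 12.6% each. None of C2, MBL2, MASP1 and MASP2 was called in a comparison between diets.

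**Figure D2:**
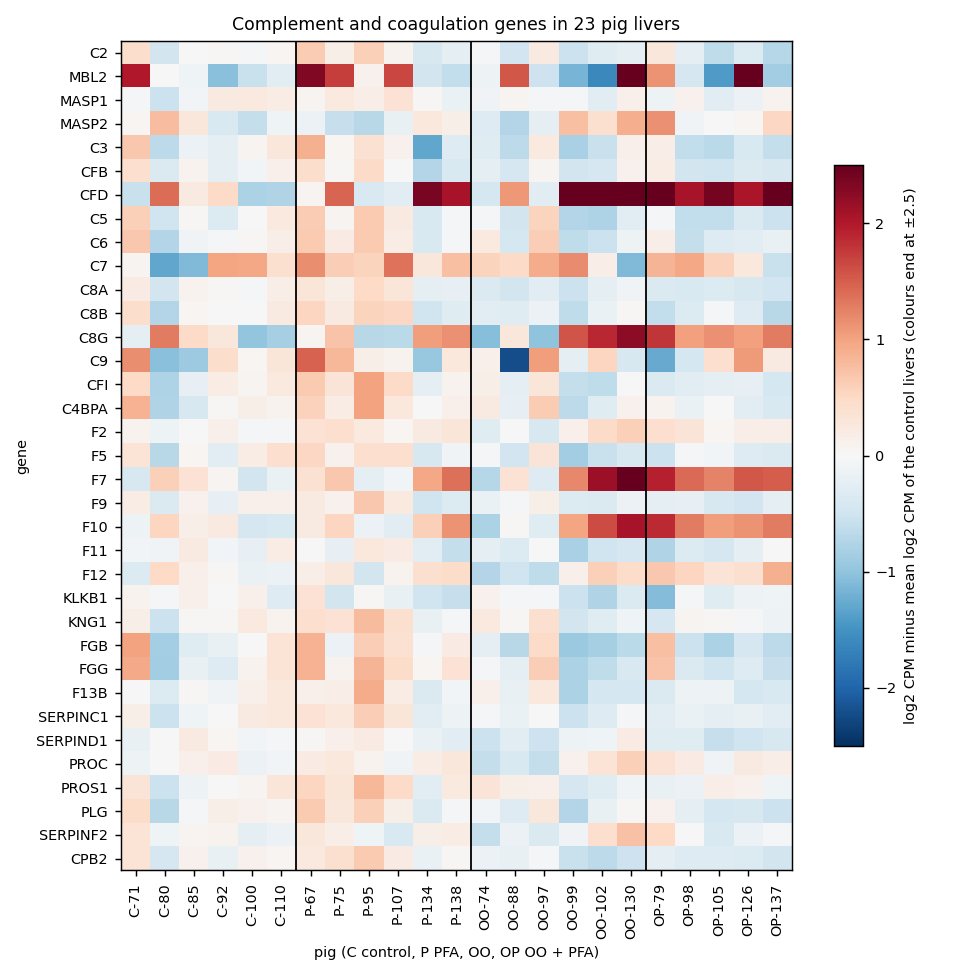
Log2 CPM of 35 members in 23 livers minus the mean log2 CPM of the 6 control livers, with genes ordered by role and pigs by diet and number. Red is higher and blue lower, and colours end at 2.5 log2 units. CFD, F7, F10 and C8G are red in all 5 OO + PFA livers and in OO-99, OO-102 and OO-130, and MBL2 alternates within every diet.

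The oxidized oil diet without the additive was compared with control, a contrast that also holds its larger amount of oil and energy. Of the 35 members 0 were called, against 2.71% of the 13831 genes tested, and 6 members and 2956 of all genes had an unadjusted p under 0.05. OO and control overlapped in all 35, where 2.24% of all genes did not overlap. DESeq2 called 2 members, CFD and F7, and 7.26% of all genes. Leaving out 1 pig, edgeR called CFD, F7 and F10 without OO-74 and CFD and F7 without OO-97, and without OO-130 the log2 fold changes were at their lowest, at 1.41 for CFD, 0.85 for F7 and 0.54 for F10. The median log2 fold change of the members was -0.15, with 26 lower and 9 higher, and over all genes it was 0.06. The smallest p-values belonged to CFD, F7 and F10.

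CFD encodes factor D, the protease that activates factor B in the alternative pathway. It ranged from 2.62 to 12.01 CPM in control livers (median 4.22), from 3.51 to 23.5 with PFA (median 8.64) and from 3.36 to 42.6 with OO (median 17.8), and the 5 OO + PFA livers were at 18.8, 18.9, 23.7, 26.0 and 31.3 CPM. OO livers split, with OO-99, OO-102 and OO-130 at 28.1, 26.0 and 42.6 CPM and OO-74, OO-88 and OO-97 at 3.36, 9.67 and 3.803 CPM. OO and control overlapped (log2 fold change 1.82, SE 0.58, adjusted p = 0.0801), and all 5 OO + PFA livers lay above all 6 control livers.

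F7, on chromosome 11 at 78512389 to 78518668, ranged from 19.98 to 42.03 CPM in control livers (median 26.8), from 23.7 to 71.9 with PFA (median 39.9) and from 17.0 to 159.4 with OO (median 49.7). OO + PFA livers were at 65.6, 73.4, 78.9, 81.2 and 106.6 CPM. The same OO livers were high, at 63.9 (OO-99), 121.0 (OO-102) and 159.4 CPM (OO-130), against 17.0 to 35.5 CPM in the other 3. F7 was at a log2 fold change of 1.28 with OO against control (SE 0.41, adjusted p = 0.0816).

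F10 starts 3091 bases downstream of F7 and encodes the protease that converts prothrombin to thrombin. Its values were 160.3 to 313.1 CPM in control livers (median 217.3), 175.7 to 468.8 with PFA (median 280.8) and 124.8 to 891.0 with OO (median 321.6), and 442.1, 467.9, 526.7, 529.8 and 784.2 CPM in the 5 OO + PFA livers. The ratio of F10 to F7 in CPM lay between 5.51 and 9.43 in all 23 livers. With OO against control the log2 fold change of F10 was 0.92 (SE 0.36, adjusted p = 0.145).

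OO + PFA was compared with the same control livers, which the comparisons of OO and of PFA with control share. Of the 35 members 3 were called, all higher, against 5.08% of all genes called and 4.09% called higher. CFD, on chromosome 2 at 77509792 to 77511988, rose 4.44-fold (log2 fold change 2.15, SE 0.60, adjusted p = 0.0393), F7 2.83-fold (1.5, SE 0.43, adjusted p = 0.0432) and F10 2.49-fold (1.32, SE 0.38, adjusted p = 0.0444). Over all 35 members, the 3 called ones included, 23 were below 0 and the median was -0.25, where the median of all genes was -0.01. In 4 members the OO + PFA and control livers did not overlap, against 9% of all genes. These were CFD, F7, F10 and SERPIND1, the last at 1036 to 1261 CPM with OO + PFA and 1362 to 1812 CPM in control livers (log2 fold change -0.42, SE 0.13, adjusted p = 0.0646). DESeq2 called 5 members, these 4 and C8A, and 8.98% of all genes.

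Leaving out any 1 pig of the 2 diets except control pig C-80 ended all 3 calls. Adjusted p lay between 0.0326 and 0.115 over the 11 fits and 3 genes, while the log2 fold changes stayed between 2.01 and 2.56 for CFD, 1.38 and 1.64 for F7 and 1.15 and 1.44 for F10. Within one title form, with 4 OO + PFA and 4 control livers, none of the 3 was called, at log2 fold changes of 2.66, 1.80 and 1.53. The other form held 1 OO + PFA and 2 control livers, too few to read its lack of calls, and gave 1.56, 0.99 and 0.92.

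**Figure D3:**
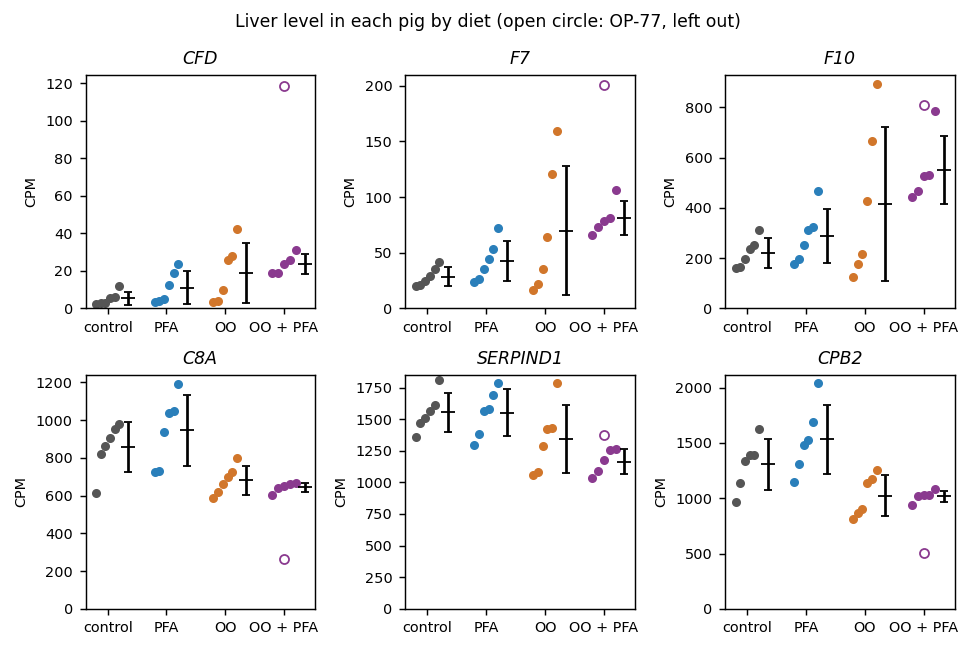
CPM in each liver for 6 members by diet, with the mean and SD of each diet beside its points. The open circle is OP-77, scaled with all 24 livers and left out of the mean and SD. CFD, F7 and F10 lie higher in all 5 OO + PFA livers than in any control liver, and the 6 OO livers of each of these genes range from control levels to above the OO + PFA livers.

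GC content of the exons was measured beside these results. F7 (67.8%), C8G (66.9%), F10 (66.7%) and CFD (64.6%) had the highest GC content of the 34 members with a value. C8G encodes the gamma chain of C8 and was not called, at a log2 fold change of 1.07 (SE 0.52, adjusted p = 0.221). Across these 34 members the log2 fold change of OO + PFA against control had a Pearson r of 0.69 with GC content, and that of OO against control 0.66, over genes that share the same libraries. By rank the relation was weaker, with a Spearman rho of 0.42 for OO + PFA and 0.48 for OO. For each gene with a value, log2 CPM in a liver was taken as a deviation from the mean of the 23 livers. The slope of these deviations on GC content was computed in each liver, so it is relative to the other livers. It lay between -0.21 and 0.08 log2 units per 10% GC in control livers, between -0.47 and 0.07 with PFA and between 0.04 and 0.49 with OO + PFA. In OO livers it was 0.30, 0.37 and 0.42 for OO-99, OO-130 and OO-102, and -0.38, -0.35 and -0.15 for OO-97, OO-74 and OO-88, the same division as for CFD, F7 and F10. After a lowess correction for GC content in each library, the log2 fold changes against control with OO + PFA were 0.35 for F7 (adjusted p = 0.151) and 0.28 for F10 (adjusted p = 0.237), so both calls were lost, while CFD stayed called at 1.43 (adjusted p = 0.0280), and C8G was at 0.10. With OO they were 0.39 for F7 (adjusted p = 0.0896), 0.17 for F10 (adjusted p = 0.459) and 1.19 for CFD (adjusted p = 0.0517, edgeR), none called. Pearson r of the corrected log2 fold changes with GC content was 0.29 with OO + PFA and 0.40 with OO. The correction was made within the genes with a GC value, 79.8% of the genes tested, so as a check of all genes it is void, and for the members, 34 of 35 had a value.

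**Figure D4:**
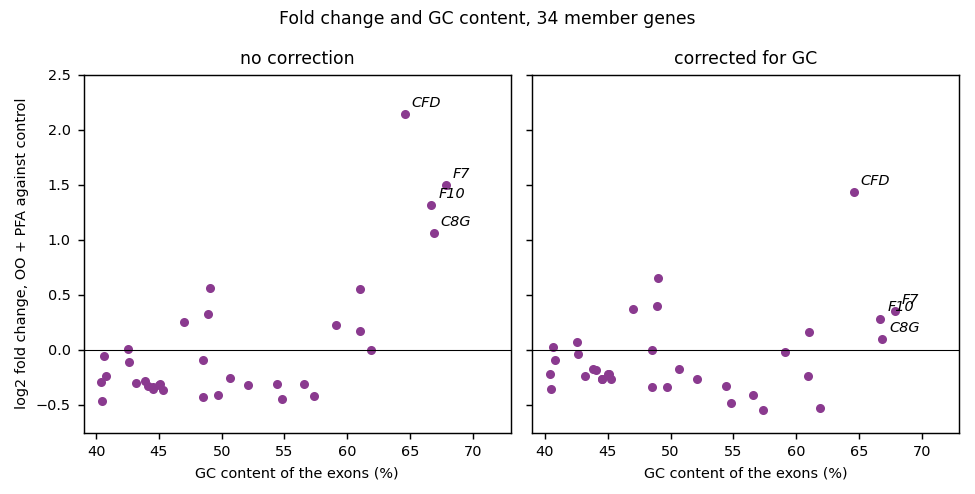
Log2 fold change of OO + PFA against control for 34 members by GC content of their exons, without correction (left) and with a lowess correction for GC content in each library (right). Each point is 1 gene. CFD, F7, F10 and C8G are to the upper right without correction, and after it CFD alone of these 4 lies above 1.

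OP-77, the liver set aside, was compared on a scaling of all 24 livers. It was above all 23 other livers for 5 members and below all of them for 22. It had 118.8 CPM of CFD, 200.7 of F7, 1619 of C8G, 461.9 of MASP2 and 121.4 of MASP1, where the highest of the 23 were 42.1, 157.5, 807.2, 353.4 and 120.9 CPM. FGB was at 1400 CPM and SERPINC1 at 555.6 CPM in this liver, under the lowest others at 5543 and 1613 CPM. With OP-77 in the fit the log2 fold changes of OO + PFA against control were 2.89 for CFD, 1.82 for F7 and 1.43 for F10. The share of read pairs on no gene was taken among pairs counted on genes or overlapping none, without ambiguous or multi-mapped pairs. It was 11.5 to 19.0% in control, 7.01 to 12.5% in PFA, 8.42 to 11.2% in OO and 10.4 to 13.8% in the 5 OO + PFA livers. With that share as a term in the fit, F7 (adjusted p = 0.0551) and F10 (adjusted p = 0.0628) were no longer called, and CFD was (adjusted p = 0.0379). The summed level of macrophage markers, over 7 of 8 listed genes, was 271.2 to 448.3 CPM in control and 492.6 to 975.5 CPM in OO + PFA livers. It was 236.8 to 630.7 CPM with PFA and 300.7 to 935.1 CPM with OO. Of the 7 genes 0 passed the test, and none of them was at 0. The 7 were not alike. In the edgeR F-test across the 4 diets, adjusted p was 0.0733 for MARCO, 0.1517 for CD14 and 0.1955 for CSF1R. For SPIC, CD68, CD163 and TIMD4 it lay between 0.6391 and 0.9499. The part of macrophages in the levels of CFD, F7 and F10 was not tested.

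Across the 4 diets, an F-test with 3 degrees of freedom called 2 of the 35 members, against 3.66% of all genes. C8A, the gene of the alpha chain of C8, was at 615.3 to 982.1 CPM in control livers (median 884.4), 725.8 to 1194 with PFA (median 987.6) and 585.0 to 801.5 with OO (median 678.2), and 604.6, 639.3, 648.4, 661.1 and 666.7 CPM with OO + PFA (adjusted p = 0.0389). Control pig C-80 was the low liver of its diet, and without it the 5 other control livers were all above the OO livers. CPB2, whose product slows the dissolution of clots, was at 965.6 to 1626 CPM in control livers (median 1362), 1143 to 2040 with PFA (median 1504), 813.6 to 1259 with OO (median 1017) and 941.7 to 1081 with OO + PFA (median 1026, adjusted p = 0.0423). Medians of both genes were highest with PFA and lower in both oxidized oil groups than in control. All pairs of diets overlapped except that all 5 OO + PFA livers were below all 6 PFA livers. That pair was not among the comparisons tested, and its share of all genes without overlap was not computed, so this separation cannot be judged. Over 23 fits with 1 pig left out, each of the 2 stayed called in 7, with adjusted p up to 0.0740 for C8A and 0.0775 for CPB2. After the GC correction both remained called, at adjusted p = 0.0302 and 0.0178.

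PFA was set against control to ask how the additive acts in unchallenged pigs. No member was called, as for the 0% of all genes called, and 1 member and 1522 of all genes had an unadjusted p under 0.05. DESeq2 called no member either. The diets overlapped in all 35 members, where 0.983% of all genes did not. Of the 35 members, 31 were above and 4 below control, with a median log2 fold change of 0.20 against 0.03 over all genes. PROS1 encodes protein S, a cofactor of the anticoagulant protein C, and was at 208.3 to 446.2 CPM with PFA (median 327.4) and 172.9 to 312.3 CPM in control livers (median 254.2, log2 fold change 0.37, SE 0.17, adjusted p = 0.439). F2 was at 1241 to 1597 CPM with PFA (median 1451) and 1093 to 1317 CPM in control livers (median 1184, log2 fold change 0.26, SE 0.14, adjusted p = 0.498). CFD had a log2 fold change of 1.06 (SE 0.57, adjusted p = 0.494).

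The additive was also compared within the oxidized oil diets. OO + PFA against OO called 0 members by edgeR and by DESeq2, beside 0% of all genes, with 1 member and 1176 of all genes under an unadjusted p of 0.05. No member was without overlap, against 0.774% of all genes. F12, the contact factor that starts the intrinsic pathway, had the smallest p, at 580.8 to 845.8 CPM with OO + PFA (median 664.8) and 274.7 to 693.1 CPM with OO (median 409.2, log2 fold change 0.60, SE 0.22, adjusted p = 0.482). SERPIND1 (log2 fold change -0.21, SE 0.13, adjusted p = 0.673) and PROC, the protein C gene (0.19, SE 0.18, adjusted p = 0.779), had the next smallest p-values. OO livers had 1060 to 1789 CPM of SERPIND1 (median 1352) and 477.5 to 1103 CPM of PROC (median 670.3), and OO + PFA livers 679.5 to 935.8 CPM of PROC (median 834.2). The difference between the oil effects with and without the additive was tested as an interaction, which called 0 members and 0% of all genes, with 0 members and 1881 of all genes under an unadjusted p of 0.05. DESeq2 called 0 members as well. CFI, the complement regulator that cleaves C3b, came first, with a log2 value of -0.56 (SE 0.30, adjusted p = 0.415). Its levels were 804.9 to 1941 CPM in control livers (median 1504), 1170 to 2784 with PFA (median 1812), 893.4 to 1706 with OO (median 1279) and 1013 to 1201 with OO + PFA (median 1135). KNG1, the kininogen gene, was at -0.40 (SE 0.25, adjusted p = 0.486) and PROS1 at -0.38 (SE 0.24, adjusted p = 0.491). KNG1 had medians of 1876 CPM in control, 2337 in PFA, 1760 in OO and 1739 in OO + PFA livers, and the diets overlapped. With the share of read pairs on no gene as a term the sign of these 3 values turned, to 0.049, 0.0033 and 0.012.

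C3, the central complement component, ranged from 11371 to 28493 CPM in control livers (median 17516), from 7236 to 33077 with PFA (median 18805), from 10211 to 21119 with OO (median 13245) and from 11155 to 19949 with OO + PFA (median 11867). F2 in the oxidized oil groups was at 909.0 to 1810 CPM (OO, median 1264) and 1241 to 1616 CPM (OO + PFA, median 1348). SERPINC1 was at 1643 to 2873 CPM in control livers (median 2499), 1960 to 3651 with PFA (median 2890), 1633 to 2359 with OO (median 2205) and 1942 to 2120 with OO + PFA (median 2048). All 3 genes overlapped between diets and were not called in a liver comparison. The members other than CFD, F7, F10, C8A and CPB2 were not called by edgeR in any comparison of diets, among them the terminal genes C5, C6 and C7, F5, F9, F11, KLKB1 and SERPINF2.

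Other genes of the cascades were counted from lists. Of 18 further complement genes tested, COLEC11, a soluble lectin, was called in OO against control (1.08, SE 0.29, adjusted p = 0.0470) and in OO + PFA against control (1.39, SE 0.30, adjusted p = 0.0176), both log2 fold changes. It was at 16.7 to 42.0 CPM in control, 27.0 to 59.8 in PFA, 22.8 to 101.9 in OO and 53.1 to 80.5 CPM in OO + PFA livers. Of 20 further genes of coagulation and fibrinolysis and 4 of the vitamin K cycle, which serves the maturation of F2, F7, F9 and F10, 0 were called in these 2 comparisons. Among 12 transcription factors of hepatocytes, CEBPB (log2 fold change 1.34, SE 0.28, adjusted p = 0.0121) and CEBPD (1.85, SE 0.43, adjusted p = 0.0209) were called with OO + PFA against control, both higher. CEBPA was at 1.80 (SE 0.58, adjusted p = 0.0661) and HNF4A at -0.15 (SE 0.15, adjusted p = 0.600). Of 10 genes of the acute phase and IL-6 signal, IL6R, the receptor chain for IL-6, was called across the 4 diets (adjusted p = 0.0167), at 62.7 to 79.2 CPM in control, 58.2 to 93.1 in PFA, 46.5 to 62.1 in OO and 44.99 to 66.96 CPM in OO + PFA livers. The OO livers lay below all control livers for IL6R, and OO + PFA overlapped with the control livers. The GC correction and the fits without 1 pig were read gene by gene for members only. Whether the values of COLEC11, CEBPB, CEBPD, CEBPA and IL6R hold in those fits was not tested.

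The ileum and liver of the same 10 pigs were compared to see which factors are transcribed outside the liver. Tissue and library preparation cannot be told apart here, and both are given in CPM of 1 joint scaling. In it liver values are higher than in the liver fit and ileum values lower than in the ileum fit. The ratios between the tissues depend on that scaling. Of the 35 members, 33 were called, 32 of them lower in the ileum, against 78.1% of all genes called, 37.5% lower and 40.6% higher. The members were chosen as blood proteins, most of them secreted by hepatocytes, so this count is a description and no independent result. Over the 10 ileum libraries 4 members had 0 counts and 3 had 1 to 3 counts. Such members passed the count filter through the liver alone, which fixed the direction of their calls. The same holds for the other members that low counts removed from the ileum fit given below, such as F2, FGB, SERPINC1 and F10. C7 and C4BPA were not called. At a mean of at least 1 CPM in the ileum fit, 13 of the 16 complement members and 5 of the 19 coagulation members were present.

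**Figure D5:**
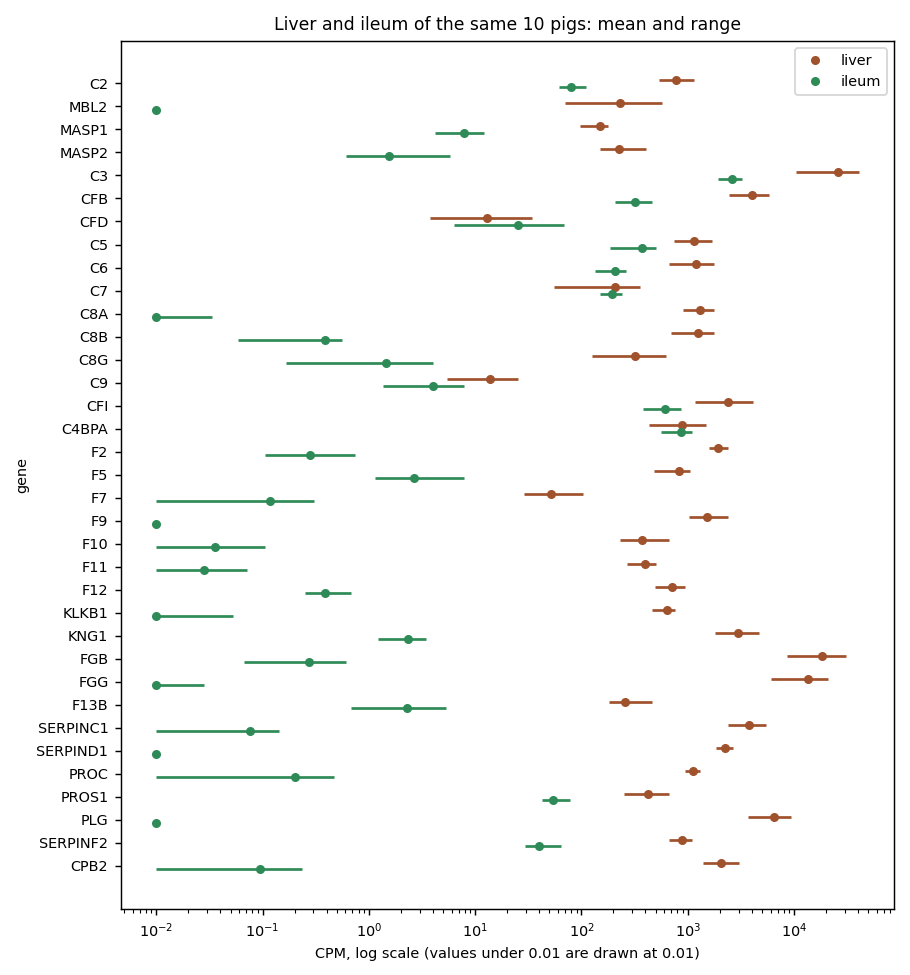
Mean CPM (points) and range (lines) of 35 members in the liver and ileum of the same 10 pigs, on a log axis, with values under 0.01 drawn at 0.01. Genes run from complement (top) to coagulation and fibrinolysis (bottom). In this joint scaling, liver exceeds ileum for 32 members that passed the test, C7 and C4BPA lie at like levels in both tissues, and CFD is higher in the ileum.

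Of the 16 complement members, 9 had at least 20 CPM in the ileum fit. C3 had a mean of 2579 ± 469.6 CPM in the ileum and 26021 ± 8936 in the liver (SD, n = 10 pigs), 10.1-fold less. CFI was at 610.8 ± 136.8 against 2403 ± 788.7, C5 at 374.8 ± 89.8 against 1137 ± 317.0, CFB at 320.5 ± 70.4 against 4038 ± 1042, C6 at 207.2 ± 37.5 against 1207 ± 344.5 and C2 at 80.0 ± 16.3 against 766.4 ± 188.5 CPM (SD, n = 10 pigs each). C4BPA, which encodes a chain of an inhibitor of the classical pathway, stood at 862.5 ± 168.1 CPM in the ileum and 875.5 ± 301.1 in the liver (SD, n = 10, log2 fold change -0.02, SE 0.18, adjusted p = 0.930). C7 was at 194.3 ± 26.4 and 208.3 ± 80.8 CPM (SD, n = 10, log2 fold change -0.09, SE 0.20, adjusted p = 0.692). These like levels belong to the joint scaling. In the separate fits, control means of C4BPA were 1265 CPM in the ileum and 527.5 CPM in the liver. Those of C7 were 285.6 CPM in the ileum and 112.1 CPM in the liver. Of the remaining terminal genes the ileum held 4.02 CPM of C9, 1.44 of C8G and 0.388 of C8B, and C8A had 1 count over the 10 libraries. In the liver C8A was at 1297 ± 260.7 CPM (SD, n = 10), and its ratio to the ileum had a counting interval of 73105 to 16088062.

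CFD was the member called higher in the ileum, at 25.4 ± 21.1 CPM against 12.96 ± 10.87 in the liver (SD, n = 10 pigs, log2 fold change 1.07, SE 0.48, adjusted p = 0.0473). The 10 ileum values in the ileum fit ran from 9.31 (P-138) to 101.8 CPM (P-134), and the tissues overlapped. The call was lost when pig C-71, C-92, P-95, C-100, P-107 or P-134 was left out, with adjusted p up to 0.138 and a log2 fold change down to 0.68. MASP1 (7.93 CPM) and MASP2 (1.54 CPM) were low in the ileum, and MBL2, whose product they serve, had 0 counts in all 10 ileum libraries, at least 2370-fold lower than in the liver against a floor of 3 counts per library.

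Among coagulation members, PROS1 at 53.5 ± 10.5 CPM and SERPINF2, the plasmin inhibitor, at 39.4 ± 11.3 CPM (SD, n = 10 each) were the 2 above 20 CPM in the ileum. PROS1 was 7.95-fold and SERPINF2 22.2-fold lower there than in the liver. F5, KNG1 and F13B lay between 2.26 and 2.67 CPM. The other 14 were under 1 CPM in the ileum. PLG, SERPIND1 and F9 had 0 counts in all 10 ileum libraries, which puts them at least 67172-fold, 22993-fold and 15649-fold lower than in the liver. FGG had 1 count and KLKB1, the plasma prekallikrein gene, 3 counts over the 10 libraries. FGB had 87 counts in all, or 0.274 CPM against 18167 CPM in the liver, and F2 had 92 counts. These floors and intervals cover counting error only.

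In the ileum PFA was compared with control. Low counts removed 15 members before the test, and of the 20 tested 0 were called by edgeR and by DESeq2, as for 0% of the 14300 genes tested, of which 401 had an unadjusted p under 0.05. Of the members, KNG1 had the smallest p, at 3.20 to 5.10 CPM in control and 1.79 to 4.02 CPM in PFA pigs (log2 fold change -0.40, SE 0.25, adjusted p = 0.991). F5 was at 1.68 to 11.3 and 1.94 to 3.83 CPM (-0.71, SE 0.44) and MASP1 at 6.02 to 13.4 and 9.99 to 18.0 CPM (0.37, SE 0.23), both at adjusted p = 0.991. Without control pig C-80, which had the 11.3 CPM, the log2 fold change of F5 was -0.12. C3, the highest of the 34 members with a length in the ileum at 747.8 ± 160.6 CPM per kb in control pigs (SD, n = 5), was at 3096 to 4861 CPM in control and 2870 to 4491 CPM in PFA pigs (log2 fold change -0.09, SE 0.18). C4BPA was at 801.1 to 1646 and 1117 to 1485 CPM, and CFI at 545.2 to 1291 and 768.8 to 1106 CPM. The PFA pigs thus lay within the control range for these 2 genes. PROC was the 1 of all 35 members whose groups did not overlap, at 0.322 to 0.686 CPM in control and 0 to 0.220 CPM in PFA pigs. This level of a few counts was not tested. The share without overlap was 0.559% of the 14300 genes tested, a set that leaves out PROC.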

How the data were processed

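Stranded, poly(A)-enriched paired-end libraries were made from 24 livers and 10 ilea. Whole-number counts of read pairs per Ensembl gene were deposited, made by the authors with HTSeq after alignment to Sscrofa11.1 with STAR 2.6.1d (version from the submitters' processing notes), without normalization or pooling, and the annotation release and strand option were not given in the sources used here. Read pairs on no gene were left out of library sizes. All 34 columns of the series tables equalled the single files.

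The members and gene lists were chosen with earlier results of these data known. Symbols were paired with gene IDs through a name table, and positions, exon lengths, GC content and promoters came from RefSeq on Sscrofa11.1. Counts were scaled by TMM, filtered with filterByExpr and tested, two-sided, with the quasi-likelihood test of edgeR 4.0.16 in R 4.3.3 (liver 23 libraries and 13831 genes, ileum 10 and 14300, both tissues 20 and 14982). DESeq2 1.42.0, with adjusted p of genes it sets aside left as missing, was an alternative. Log2 CPM used a prior count of 2. Correlations of deviations from diet means were tested with 100000 permutations and adjusted over 4 p-values. Tables were handled with Python 3.11.15 and pandas 2.3.3. The edgeR fits and the GC correction were tested on simulated data.

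The ileum and liver libraries with the same number come from the same pig. Their deviations from group means correlated across genes between -0.18 and 0.46, above 0.1 in 8 of 10 pigs. The replicates of a diet are separate pigs of 1 pen, so p-values measure the spread between pigs of that pen.

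Members were named by a rule: values per diet for those called in a liver comparison or, with none called, for the 3 with the smallest p, always for FGB, FGG, C3, F2 and SERPINC1 (FGA was on this list but not analysed here), and in the ileum for members at 1 CPM or more. Genes of other pathway lists were named if called (marker lists served as checks), besides HNF4A and CEBPA, and 1 further item of this rule is not reported here. The alternatives were DESeq2, RLE scaling, no filter, a minimum of 10 counts in every library, terms for the share of read pairs on no gene or the form of the library title, all 24 livers, the 2 diets alone, the pig as a block and leaving out each pig. Fits of genes with a GC value, with a GC correction (lowess span 0.5), and of each title form were added after seeing the data.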

Additional observations from a re-analysis of the deposited data

Results flagged for a closer look

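Each member in each diet and tissue was checked for a single pig far from the others of its group, by Dixon's criterion, which chance meets in about 5% of groups. Of 176 groups, 13 met it, and 5 of the 13 were OO + PFA liver OP-79. That liver had 19949 CPM of C3 (others 11155 to 13695), 3200 of CFB (1999 to 2180), 784.2 of F10 (442.1 to 529.8), 17989 of FGB (6198 to 7986) and 12347 of FGG (5072 to 6029).

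Control pig C-80 had 1239 CPM of KNG1 in the liver (others 1829 to 2139), and in the ileum 8.46 CPM of MASP2 (0.894 to 1.88) and 11.3 of F5 (1.68 to 4.35). PFA pig P-134 had 101.8 CPM of CFD in the ileum (9.31 to 20.3) and 96.4 of SERPINF2 (43.7 to 51.6). Control pig C-71 had 393.3 CPM of MBL2 in the liver (47.6 to 97.6), PFA pig P-95 had 308.5 CPM of F13B in the liver (125.4 to 184.7), and control pig C-110 had 95.8 CPM of PROS1 in the ileum (65.5 to 74.1).

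OP-77, left out of the fits, was above all 23 other livers in 5 members, with 118.8 CPM of CFD, 200.7 of F7, 1619 of C8G, 461.9 of MASP2 and 121.4 of MASP1.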

How the results depend on the processing

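Counts of members called moved as follows. With OO against control, DESeq2 called 2 (7.26% of all genes) and a term for the share of read pairs on no gene 1 (0.564%), where the result was 0 (2.71%). With OO + PFA against control, where the result was 3 (5.08%), DESeq2 and a fit of the 2 diets alone called 5 each (8.98% and 12.6%), and the livers of either title form 0 (1.71% and 0.0846%). The smaller title form held 1 OO + PFA liver, so its 0 says nothing about stability. Across the 4 diets, where the result was 2 (3.66%), DESeq2 called 7 (11.9%), all 24 livers 5 (8.10%), the GC correction 6 (7.38%), a term for the title form 1 (3.28%), and no filter (2.25%) or either title form alone (1.13% and 0.31%, the smaller with the same limit) 0. For ileum against liver, a minimum of 10 counts in every library left 15 called, since fewer genes were tested. Leaving out 1 pig gave 0 to 3 calls for OO against control (3 without OO-74, 2 without OO-97), 0 to 4 for OO + PFA against control (4 without C-80), 0 to 5 across the 4 diets and 32 to 33 for ileum against liver, and 0 in each fit of PFA against control in either tissue, of OO + PFA against OO and of the interaction. The interaction values of CFI, KNG1 and PROS1 turned to 0.049, 0.0033 and 0.012 with the term for read pairs on no gene. Except for the tissue filter, the cause of these moves was not tested.

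With the pig as a block in the ileum against liver comparison, the pairing of the same animals left 33 members called, as without it, and CFD stayed called (log2 fold change 0.95, adjusted p = 0.0390, edgeR). Liver diets held different pigs, so no paired fit applied to them. At 18738055 to 42446834 read pairs per library, members of a few counts in the ileum had little precision.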
